A study of Caenorhabditis elegans with 2 samples.

Results

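The cytosolic ribosomal protein genes of the nematode Caenorhabditis elegans were examined for occupancy by TBX-7, a T-box transcription factor. Members were the protein-coding genes of the Ensembl annotation of WBcel235 whose symbols begin with rpl- (large subunit) or rps- (small subunit), which gave 78 of 19973 genes, 47 for the large and 31 for the small subunit. The transgenic hermaphrodite strain OP311 makes TBX-7 with a GFP-FLAG tag on the C-terminal end. Sonicated chromatin of its whole late embryos, taken 3 h after egg bleaching, was pulled down with an anti-GFP antibody per the sample descriptions, although the antibody field of the labels names tbx-7. Chromatin immunoprecipitation followed by sequencing (ChIP-seq) gave 1 group of 2 biological replicates, with no other genotype, stage or treatment, so genes were compared with each other and not conditions. A whole embryo mixes all cell types, and the lists do not show which cells contribute a peak. The lists hold no read totals, so the depth behind each peak is unknown.

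Ribosomal proteins, together with ribosomal RNA, make up the subunits that translate messenger RNA. The small subunit holds the decoding centre and the large subunit joins amino acids and carries the exit tunnel for the growing chain. Their genes are scattered over the chromosomes, are transcribed strongly in growing cells, and must be made in matched amounts. Many worm genes, ribosomal protein genes among them, receive a short spliced leader by trans-splicing, so that an annotated gene start can lie at the splice acceptor, downstream of the place where transcription began. Others follow a same-strand gene closely, as the later genes of worm operons do, and can be transcribed from the promoter of the first gene.

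Occupied genes were those with at least 1 peak summit from 1000 bp upstream to 200 bp downstream of the gene start, here called the promoter. In the authors' final list of 690 peaks, kept after a test of reproducibility between replicates (irreproducible discovery rate, IDR), 15 of the 78 ribosomal protein genes had a summit there, a share of 19.2% (exact 95% interval 11.2 to 29.7%, counting error only), where 3.12% of all protein-coding genes did. The 15 genes held 16 IDR summits, since rps-24 had 2. All coordinates are 1-based positions on ce11, which is WBcel235.

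Sequences at 6 of the occupied genes are shown for the words they hold, and not as typical of the set. At rps-24, which encodes the small subunit protein eS24, both summits lay in a repeat. The windows reach 50 bp to either side of each summit and read in the direction of the gene, on the forward strand, with the 10-base word CCCCTTTTCG or its complement in capitals:
rps-24, IV:385221-385321: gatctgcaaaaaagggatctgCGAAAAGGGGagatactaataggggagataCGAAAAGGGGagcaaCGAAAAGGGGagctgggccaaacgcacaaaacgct
rps-24, IV:385428-385528: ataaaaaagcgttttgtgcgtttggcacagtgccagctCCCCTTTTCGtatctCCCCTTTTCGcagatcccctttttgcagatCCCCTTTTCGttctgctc
The word was the most frequent of its length over both peaks, a stretch of 601 bp. It stood 5 times in 1 orientation around the first summit and 4 times in the other around the second, so the summits, 207 bp apart, lay on opposite arms of an inverted repeat. It occurred 571 times in the genome on both strands and in 24 of the 690 IDR summit windows.

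The other windows were picked because each held the six-base word ACCGTA, which was in 6 of the 16 member windows and is in capitals below with its complement TACGGT. The other 10 windows, among them that of the stronger rpl-35 summit, did not hold it. The sequences follow the strand of the ribosomal protein gene, which is forward for rpl-3 and rpl-43 and reverse for rpl-15, rpl-20 and rps-23:
rpl-3, III:3867532-3867632: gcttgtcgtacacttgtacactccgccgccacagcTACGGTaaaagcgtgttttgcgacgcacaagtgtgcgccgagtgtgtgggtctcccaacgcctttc
rpl-43, II:14154501-14154601: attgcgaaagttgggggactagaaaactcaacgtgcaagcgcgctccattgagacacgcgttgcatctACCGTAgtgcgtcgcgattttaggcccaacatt
rpl-15, IV:654874-654974: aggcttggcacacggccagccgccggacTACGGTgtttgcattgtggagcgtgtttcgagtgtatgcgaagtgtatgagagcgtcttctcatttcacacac
rpl-20, IV:4750034-4750134: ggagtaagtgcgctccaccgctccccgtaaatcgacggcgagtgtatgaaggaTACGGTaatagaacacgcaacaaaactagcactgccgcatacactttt
rps-23, IV:12391271-12391371: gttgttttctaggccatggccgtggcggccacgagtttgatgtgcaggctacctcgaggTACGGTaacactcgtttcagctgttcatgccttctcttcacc
The sixth window with this word, at rps-18, overlapped an exon of a neighbouring gene and is not printed.

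Of the large subunit genes 6 of 47 were occupied: rpl-3, rpl-7A, rpl-15, rpl-20, rpl-35 and rpl-43. The protein of rpl-3 lies at the peptidyl transferase centre and that of rpl-35 beside the exit tunnel. The peak of rpl-3 (III:3867428-3867694) had signal 282, rank 77 of 690, with its summit 272 bp upstream of the start. Signal is the authors' own value on the scale of their peak caller, and it was 157 at this summit in the list of replicate 1 and 122 in that of replicate 2. It ranked high in both lists, at 77 of 16060 and 87 of 9840.

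The peak of rpl-43 (II:14154421-14154646) had signal 226 in the IDR list, 147 in replicate 1 and 80.4 in replicate 2. The gene encodes the relative of human RPL37A, and its summit was the farthest of the set, 743 bp upstream. Signal at rpl-15 (IV:654845-655019) was 210 in the IDR list, 105 in replicate 1 and 106 in replicate 2. Signal at rpl-35 (III:7854456-7854899) was 190, with 101 in replicate 1 and 89.4 in replicate 2. Both replicates placed these 2 summits within their 177 strongest peaks.

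The rpl-20 peak (IV:4749862-4750305), at a gene for another large subunit protein, had signal 149 in the IDR list, 89.2 in replicate 1 and 64.0 in replicate 2. The weakest large subunit peak was that of rpl-7A (IV:4390450-4390893), with signal 95.1, rank 589, and 50 in replicate 1 and 47.7 in replicate 2. Its summit was also the closest to a start, 82 bp upstream.

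Of the small subunit genes 9 of 31 were occupied: rps-0, rps-1, rps-12, rps-18, rps-19, rps-23, rps-24, rps-26 and rps-28. The first rps-24 peak (IV:385109-385305) was the strongest at any member, with signal 327, rank 52, in the IDR list, 188 in replicate 1 and 133 in replicate 2. The second (IV:385460-385709) had signal 276, with 157 and 125. The summits lay 616 bp and 409 bp upstream of the start. Of the 66 words of 36 bases in the window of the second summit, all 66 occurred more than once in the genome, the most frequent 62 times, and 9 of 66 did so at the first. The placement of reads from such repeats is not stated in the labels, so the position of this signal is uncertain. The length of 36 bases was a choice, since the read length is not stated either. At the remaining 14 summits every such word was unique, except at rpl-7A, where 8 of 66 were not.

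At rps-26 (I:14759306-14759749) signal was 158 in the IDR list, 87.1 in replicate 1 and 64.4 in replicate 2. This summit was the only 1 of the 16 within 200 bp of a small RNA gene (tRNA, rRNA, snRNA or snoRNA), here F39B2.14. The gene rps-23, whose protein lies at the decoding centre, had signal 155 (IV:12391287-12391402), with 104 in replicate 1 and 48.0 in replicate 2. The rps-28 peak (IV:1659053-1659496) had signal 125, with 63.5 in replicate 1 and 69.6 in replicate 2. The replicates were close at rps-28 and apart at rps-23, which ranked 172 in replicate 1 and 582 in replicate 2.

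The rps-12 peak (III:5678912-5679355) had signal 118, with 66.0 in replicate 1 and 55 in replicate 2. The rps-19 peak, at the gene whose human relative is mutated in Diamond-Blackfan anaemia, had signal 114 (I:9625850-9626293). It stood at 34.0 and rank 1280 in replicate 1, and at 76.9 and rank 240 in replicate 2. The opposite held at rps-1 (III:4475479-4475922, signal 92.9), which had 62.7 and rank 430 in replicate 1 and 32.2 and rank 1607 in replicate 2. These 2 genes thus rest mainly on 1 replicate each: the −log10 q-value was 1.62 at rps-19 in replicate 1 and 0.6 at rps-1 in replicate 2.

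At rps-18 (IV:14824823-14825266) signal was 105, with 58.4 in replicate 1 and 42.6 in replicate 2. At rps-0 (III:4754160-4754603), which encodes the relative of human RPSA, it was 91.5, the weakest of the set, with 48.6 in replicate 1 and 49.1 in replicate 2. Each of the 16 was matched to within 100 bp by a summit of replicate 1 and by a summit of replicate 2. A −log10 q of at least 2 was reached by 15 of the 16 in replicate 1 and by 14 in replicate 2, where rps-18 (1.56) was the other summit below it.

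**Figure D1:**
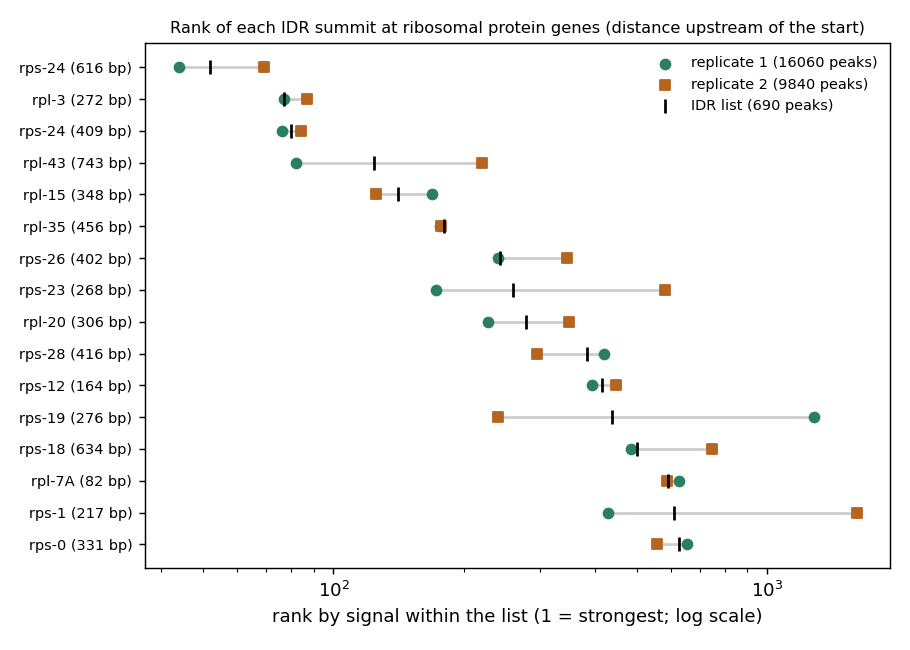
Rank by signal (horizontal, log scale, 1 is the strongest) of the 16 IDR summits at ribosomal protein genes, with circles for replicate 1, squares for replicate 2 and black ticks for the IDR list; each row names the gene and the distance of the summit upstream of the start. The rps-24 and rpl-3 summits rank between 44 and 87 in all 3 lists, whereas rps-19 and rps-1 have the widest gaps between replicates.

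The share of occupied genes was 12.8% in the large subunit (exact 95% interval 4.83 to 25.7%) and 29.0% in the small subunit (14.2 to 48.0%). These intervals overlap. The order of the shares turned in 1 setting only. Among the 345 strongest IDR peaks 5 large and 3 small subunit genes were occupied, or 10.6% and 9.68%. With every other choice of window, start, replicate or peak subset tried, the small subunit share was the higher. When a summit counted only for the nearest gene start, the shares were 8.51% and 9.68%. The median signal of the strongest summit per gene was 200 at the 6 large subunit genes and 118 at the 9 small subunit genes. In the series-wide list taken before the IDR test, the shares were 68.1% (52.9 to 80.9%) and 71.0% (52 to 85.8%). They were farther apart in the replicate 2 list, at 53.2% (38.1 to 67.9%) and 74.2% (55.4 to 88.1%). The intervals overlap in each list and no test was made, so no difference between subunits was shown.

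Weaker summits were common at ribosomal protein genes. In the series-wide list before the IDR test, called on both replicates together with 8759 peaks, 54 of the 78 genes had a promoter summit, or 69.2% (exact 95% interval 57.8 to 79.2%), where 15.8% of all protein-coding genes did. In replicate 1 alone 57 genes had a summit (73.1%, against 24.7% of all genes), and in replicate 2 alone 48 genes did (61.5%, against 16.3%). Both replicate lists held a summit for 43 genes (55.1%, against 10.6% of all genes). These lists hold peaks and background as input for the IDR test, so a summit in them is weak evidence by itself. With a −log10 q of at least 2 the series-wide list gave 19 members (24.4%, against 3.71% of all genes), replicate 1 gave 21 (26.9%, against 4.14%) and replicate 2 gave 13 (16.7%, against 2.82%).

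**Figure D2:**
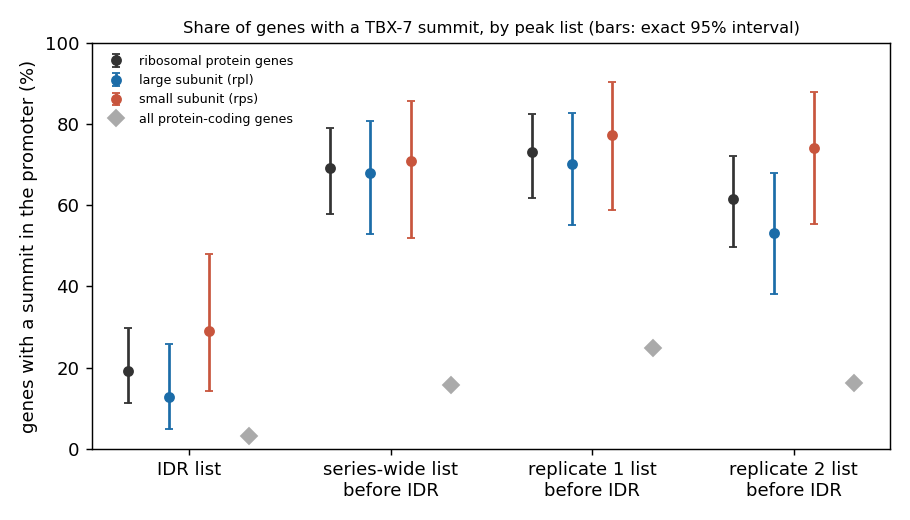
Share of genes (vertical, percent) with a summit in the promoter in each of the 4 lists, for all 78 ribosomal protein genes (black), the large subunit (blue) and the small subunit (red), each with its exact 95% interval, and for all 19973 protein-coding genes (grey diamonds). In every list the 78 genes lie above all genes, 19.2% against 3.12% in the IDR list, and the intervals of the subunits overlap.

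The occupied genes were not unusual in peak strength. The median signal of the strongest summit was 149 for the 15 ribosomal protein genes and 150 for the 608 other occupied genes, with median ranks of 278 and 273.5. Among genes with a series-wide summit the medians were 62.5 for the 54 members and 46.3 for other genes. Of the 43 members with a summit in both replicate lists, 33 (76.7%) had their strongest summits within 100 bp of each other, against 68.1% of 2068 other genes. Over these 33 members signal in the replicates had a Spearman correlation of 0.75, given as a description, since the genes share their libraries and the control.

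Of the 39 members with a series-wide but no IDR summit, the strongest were close to the limit of the IDR list, whose weakest peak had signal 86.0. The summit at rpl-24.2 (I:9669043-9669486), which encodes a relative of a factor in large subunit assembly, had signal 85.3, with 46.7 in replicate 1 and 45.1 in replicate 2. The summit at rps-20 (I:14469144-14469587) had signal 84.8, with 38.1 and 43.2. A pair of members, rps-10 and rpl-24.1, lie head to head with starts 610 bp apart and had the same summit, with signal 74.5 in the series-wide list, 40.8 in replicate 1 and 23.1 in replicate 2. The next was at rpl-11.2 (signal 70.3). Among other head-to-head pairs of members, rpl-39 and rps-30 shared a summit of signal 36.4, and of rpl-36 and rps-14 only rpl-36 had a series-wide summit (signal 34.2). That summit lay 931 bp upstream of rpl-36 and within the rps-14 gene, past the limit of 200 bp downstream of the rps-14 start.

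No summit in any list was found for 16 members (20.5%), where 69.1% of all protein-coding genes had none. They were 11 of the large and 5 of the small subunit. Position behind another gene went with this. Of the 8 members that start within 500 bp of the end of a gene on the same strand, 6 had no summit in any list (75%, against 69.5% of all genes so placed), namely rpl-16, rpl-19, rpl-25.1, rpl-27, rps-7 and rps-16. Of the remaining 70 members 10 had none (14.3%, against 69.0% of all other genes). An IDR summit was found at 0 of the 8 (2.16% of all genes so placed) and at 15 of the 70 (21.4%, against 3.33% of all other genes). A series-wide summit was found at 2 of the 8 (25%, against 14.4% of all genes so placed), rps-2 (signal 50.8) and rps-17 (signal 59.5), and at 52 of the 70 (74.3%, against 16.1% of all other genes). This grouping was made after the values were seen.

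Of the first genes in these 8 runs, fib-1 had an IDR summit and the other 7 had none. The gene rps-16 starts 109 bp behind fib-1, which encodes the nucleolar methyltransferase fibrillarin, and the IDR peak of fib-1 (V:15002226-15002444, signal 286, 196 in replicate 1 and 92.2 in replicate 2) had its summit 1831 bp upstream of rps-16. It was the only IDR summit between 1000 and 2000 bp upstream or 200 and 500 bp downstream of a member outside the 16 counted above. Weaker summits stood at others: glit-1, in front of rpl-25.1, had a series-wide summit of signal 77.2 (rank 832), and lias-1, in front of rpl-16, 1 of signal 45.0. The first genes of the runs with rpl-19, rps-7, rps-17 and rps-2 had no summit in any list.

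Occupied members had their summits upstream, in every case before the start. The median distance was 331 bp over the 15 strongest summits (range 82 to 743 bp), against 241 bp for the 608 other occupied genes, of which 19 (3.12%) had the summit downstream of the start. Between 0 and 500 bp upstream lay 12 of the 15 strongest summits, and those of 458 of the 608 other occupied genes. Members more often had AG just before the annotated start (84.6%, against 27.6% of all protein-coding genes). Whether this bears on the distances was not tested. Measured from the start of the coding sequence, the median offset of members was −336 bp, negative being upstream, and that of other genes is not given here. Large and small subunit genes had medians of 327 and 331 bp. In the series-wide list the medians were 308 bp for members and 285 bp for other genes, and in replicate 1 they were 303 bp and 296 bp. In replicate 2 the order turned, with 283.5 bp for members and 304 bp for other genes.

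**Figure D3:**
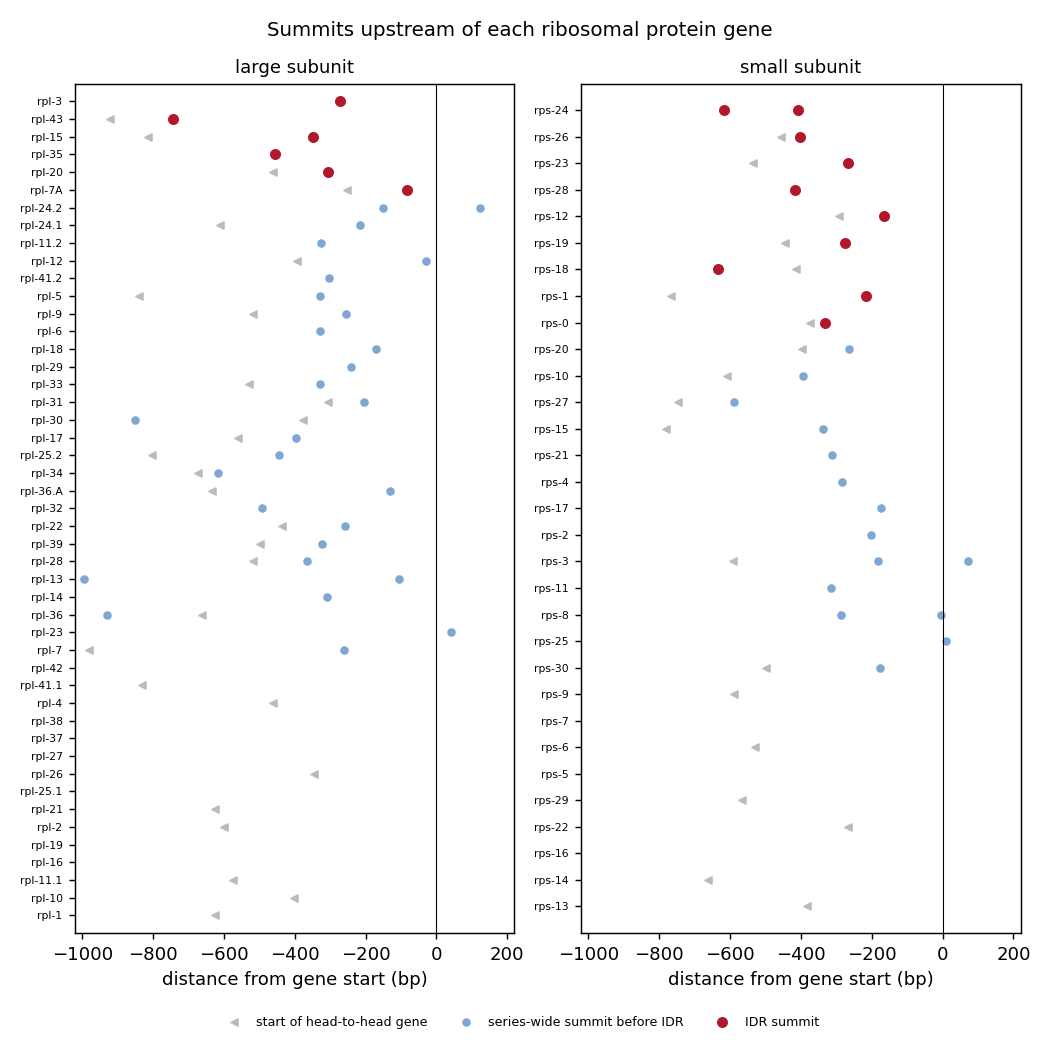
Position of summits (horizontal, distance from the gene start in bp, negative upstream) for each large subunit gene (left) and small subunit gene (right), sorted by signal, with red for IDR summits, blue for series-wide summits before the IDR test and grey triangles for the start of a head-to-head gene within 1000 bp. All 16 IDR summits lie upstream of the start, between 82 and 743 bp.

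The bases just before the annotated start often matched the letters of a splice acceptor. The last 2 bases before it were AG in 66 of 78 members (84.6%), against 27.6% of all protein-coding genes, and the last 6 were TTTCAG in 38 members (48.7%), against 12.3%. Of the 15 occupied members 9 had TTTCAG. The 30 bases before the start of 6 occupied members, in the direction of the gene, show starts with and without these letters, with TTTCAG in capitals where it ends the stretch:
rpl-3, III:3867824-3867853: taattttttcgtaaaattaatattTTTCAG
rpl-15, IV:654577-654606: atctcgttattctaaccttttttcTTTCAG
rps-12, III:5679268-5679297: tattaacgagtcgaaatttctaatTTTCAG
rps-0, III:4754052-4754081: ctgatctgaaattaatttttgaattttaag
rps-24, IV:385857-385886: gacaattttaaaactacaattcaaatttat
rpl-43, II:14155264-14155293: catttctttttttcaggtaatccagtcgaa
The stretch of rps-0 ends in AG without the full word, and those of rps-24 and rpl-43 end in neither. That of rpl-43 holds TTTCAG farther from the start, in lower case, and the annotated start of rpl-43 is its coding start. These are matches of letters, and splicing was not measured.

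Neighbouring genes stood close upstream. Of the 78 members 47 (60.3%) had the start of an opposite-strand gene within 1000 bp upstream, against 17.7% of all protein-coding genes, and the median gap to the next gene upstream was 557.5 bp, against 937 bp. Among genes with such a head-to-head neighbour 11 of 47 members were occupied (23.4%, exact 95% interval 12.3 to 38.0%), where 9.07% of all genes of this arrangement were. Among the others 4 of 31 members were (12.9%, 3.63 to 29.8%), where 1.84% of all such genes were. The 4 were rpl-3, rpl-35, rps-24 and rps-28. Members were thus occupied more often than all genes in both arrangements, by counts that are small in the second.

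A summit in the promoter of another gene as well was found at 11 of the 15 occupied members (73.3%), against 62.5% of the 608 other occupied genes. For 10 of the 11 the other gene ran in the opposite direction, and for rps-28 it was Y41D4B.4 on the same strand, whose start lay 835 bp from the summit. Starts of the 11 pairs were 254 to 921 bp apart. The summit was closer to the other gene in 7 of the 11. These were rps-0 with rbg-3 (331 bp against 42 bp), rps-26 with tmem-107, which encodes a ciliary transition zone protein (402 bp against 55 bp), rps-19 with hsr-9, the 53BP1 homologue (276 bp against 169 bp), rps-12 with ska-3 (164 bp against 129 bp), rps-23 with dpm-3 (268 bp against 266 bp), rpl-20 with Y17G9B.5 (306 bp against 156 bp) and rpl-43 with Y48B6A.1 (743 bp against 178 bp).

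It was closer to the ribosomal protein gene at rpl-7A, whose partner is the SET domain gene set-21 (82 bp against 172 bp), at rpl-15 with K11H12.8 (348 bp against 466 bp), at rps-28, and at rps-1, whose partner ifet-1 encodes the homologue of an eIF4E-binding translational repressor (217 bp against 551 bp). At rps-18 the summit lay 634 bp upstream, in an exon of sec-61.A, 219 bp into that gene and 195 bp before its coding sequence, and so just outside the promoter of sec-61.A. The rps-1 summit lay in an exon of the non-coding gene F56F3.10, and the remaining 14 summits were intergenic. With each summit given to the nearest start only, 7 members stayed occupied (8.97%, against 2.12% of all genes): rpl-3, rpl-7A, rpl-15, rpl-35, rps-1, rps-24 and rps-28. Peak lists cannot tell which of 2 genes a shared summit serves.

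**Figure D4:**
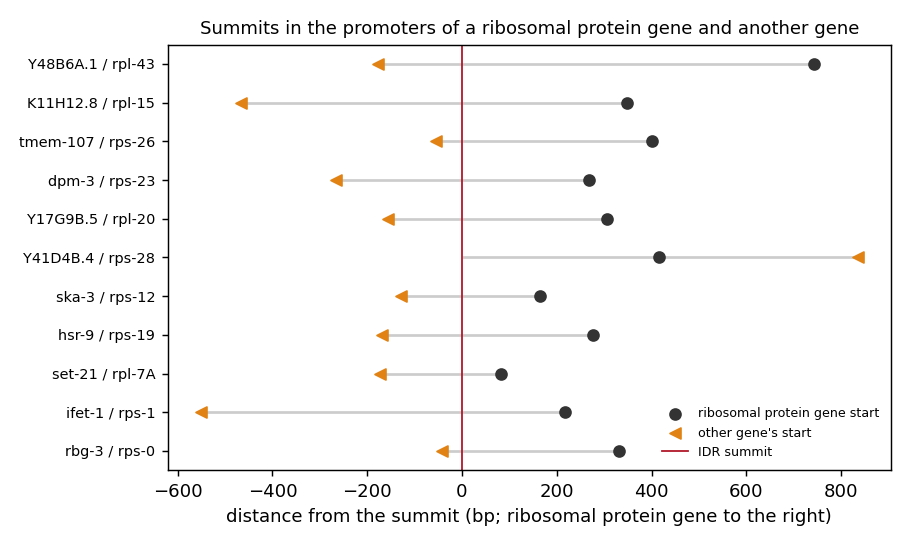
Distance (horizontal, bp) from each shared IDR summit (red line at 0) to the start of the ribosomal protein gene (black circles, drawn to the right) and of the other gene (orange triangles), for 11 pairs in order of signal. In 7 pairs the other gene's start is nearer, and for Y41D4B.4 it lies on the same side as rps-28.

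Counts of occupied members by chromosome were small. On IV 7 of 17 members were occupied (41.2%, exact 95% interval 18.4 to 67.1%), where 2.93% of all genes there were, and on III 5 of 18 (27.8%, 9.69 to 53.5%), where 5.15% were. On I, which has the most members, 2 of 23 were occupied (8.70%, 1.07 to 28.0%), where 4.0% of all genes were, and both were small subunit genes. On II 1 of 10 was occupied, where 3.57% of all genes were. None of 8 on V and none of 2 on X were, where 2.12% and 1.72% of all genes were, and counts of 0 in so few genes allow shares of up to 36.9% and 84.2% (upper bounds of the exact 95% interval). The intervals of I and IV overlap.

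**Figure D5:**
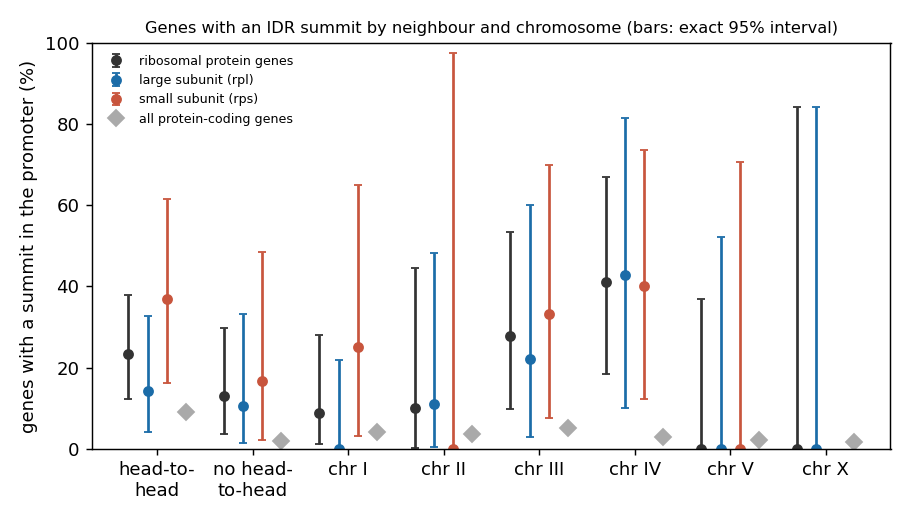
Share of genes (vertical, percent) with an IDR summit, by presence of a head-to-head start within 1000 bp and by chromosome, for ribosomal protein genes (black), large (blue) and small subunit genes (red) with exact 95% intervals and for all protein-coding genes (grey diamonds). Ribosomal protein genes reach 41.2% on IV, and the wide intervals overlap between chromosomes.

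Words were counted on both strands within 50 bp of each summit. The T-box core GGTGT was in 3 of the 16 member windows, those of rpl-15, rpl-35 and rps-26, and in 17.2% of the 674 other IDR windows. In windows 500 bp from IDR summits its share was 9.28%. In promoters of 250 bp before to 50 bp after the start it was in 17.9% of members, against 27.7% of all genes. The longer T-box word AGGTGTGA, searched as an exact match, was in 0 of the 16 and in 0 of the others. No other form of the T-box site was searched. Of the repeat words, GAGAGA was in 0 member windows, against 16.8% of the others, and CTCTCTC in 0, against 7.27%. The TATA box word TATAAA was in 0, against 5.64%, and the E-box CACGTG in 0, against 2.37%. The RNA polymerase III box B word was in 0, against 4.60%, and the heat shock element word TTCNNGAA in 0, against 5.49%. The word GCGCGC was in 3 windows (rpl-7A, rpl-43 and rps-12), against 10.8%. The acceptor word TTTCAG was in 2 (rps-18 and rps-23), against 6.23%. The median GC content was 50% in member windows, 48.5% in other IDR windows and 36.6% in windows 500 bp from IDR summits. No match says only that the letters are absent from these windows.

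Further six-base words were looked for in the member windows after the data were seen, and the 5 in most windows were kept. ACACGC and ACACTC were each in 7 of 16, against 8.46% and 9.35% of other IDR windows, and GCACAC and GCAAAA were each in 6, against 10.1% and 14.1%. ACCGTA was in 6 (rpl-3, rpl-15, rpl-20, rpl-43, rps-18 and rps-23), against 1.78% of other IDR windows, and these counts chose the words. In windows 500 bp from IDR summits ACCGTA had a share of 3.7%, above that of the other IDR windows. There ACACGC had 1.59%, ACACTC 2.54%, GCACAC 2.68% and GCAAAA 14.7%. Measured on summits that did not choose it, ACCGTA was in 12 of 37 distinct series-wide summit windows of members without an IDR summit (32.4%), against 4.26% of 2090 such windows of other genes. Within 25 bp of the summit it was in 5 of the 37, against 2.11%. ACACTC was in 9 of the 37 (24.3%, against 6.65%), and the other 3 words were in 5.41 to 8.11%, against 4.83 to 13.8%.

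The 500 bp upstream of the start held ACCGTA in 36 of 78 members (46.2%), against 13.9% of all protein-coding genes. Of these 36 members, 31 were among the 63 without an IDR summit and 5 among the 15 with 1. In members the nearest copy lay a median of 285 bp upstream (quartiles 219.75 and 367 bp). Over all protein-coding genes with the word it lay a median of 241 bp upstream (quartiles 135 and 367 bp). The presence of ACCGTA in these 500 bp thus did not mark the occupied members. This stretch leaves out the summit windows of rpl-43 (743 bp upstream) and rps-18 (634 bp upstream), which both held ACCGTA. In the shorter promoters, from 250 bp before to 50 bp after the start, it was in 16.7% of members, against 8.11% of all genes.

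Other genes of protein synthesis gave these counts. Of 40 genes with symbols of initiation and elongation factors 9 were occupied (22.5%, exact 95% interval 10.8 to 38.5%), led by eif-3.E (signal 322), eif-3.B (signal 277), eif-4A3 (signal 180) and eef-1A.2 (signal 128). Of 70 mitochondrial ribosomal protein genes 4 were (5.71%, 1.58 to 14%), namely mrpl-18 (signal 414), mrps-35 (signal 343), mrpl-15 (signal 165) and mrpl-23 (signal 139). Of 27 genes for nucleolar ribosome assembly 3 were (11.1%, 2.35 to 29.2%): fib-1, rbd-1 (signal 145) and nol-56 (signal 90.3). Of 6 RNA polymerase I subunit genes 1 was, rpoa-12 (signal 168). Of 6 ribosomal protein genes with other symbols, rla-0, rla-1, rla-2, rack-1, ubl-1 and ubq-2, none had an IDR summit, and a count of 0 in 6 allows a share of up to 45.9% (exact 95% interval), while 3 had a series-wide summit, which 15.8% of all protein-coding genes had. The share of all protein-coding genes is 3.12% for each of the IDR counts.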

How the data were processed

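Peak lists in ce11 coordinates were used, 1 after the IDR test, 1 series-wide list before it and 1 per replicate, all as deposited. Per the metadata deposited by the authors, the replicate and series-wide lists were called against 1 control alignment and the IDR list was derived from them. Caller, aligner and their versions: not given in the sources used here. Column 7 is the signal deposited by the authors and column 9 the −log10 q-value deposited by the authors, both set within a list. Versions of the lists on ce10 were not used, and no coordinates were converted.

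Summits (start plus offset in column 10) were placed on Ensembl release 115 genes with Python 3.11.15, pandas 2.3.3, numpy 2.4.6 and scipy 1.17.1. The window code was tested on simulated data. Sequences came from RefSeq's WBcel235. Shares carry exact intervals. No test was made: the single group offers no contrast, and genes are not replicates. Named were all members with an IDR summit, the 5 next by series-wide signal (1 summit belongs to both rps-10 and rpl-24.1), and at most 4 genes per related list. Also named, outside this rule, were members lying head to head or behind a same-strand gene, with some of their neighbours. The members and lists were chosen with earlier results of these data known. Alternatives covered windows, starts, peak subsets, single replicates and small RNA genes.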

Additional observations from a re-analysis of the deposited data

How the results depend on the processing

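The count of 15 occupied members kept within 1.5 times its value, from 13 to 19, with a shorter or longer window, the coding start, the series-wide list at a −log10 q of at least 2, without peaks near small RNA genes and without the peaks at rps-24; the last was chosen after seeing the data. Over these settings 2.48 to 3.95% of all protein-coding genes were occupied. Among the strongest 345 peaks 8 members remained, 3 of the small subunit, and 5 shared their summit. The share of all protein-coding genes fell as well with this shorter list, from 3.12% to 1.88%. With nearest starts only 7 remained, 3 of the small subunit, where 2.12% of all genes were occupied. Without replicate 1 or 2, taking the 690 strongest peaks of the other, the count was 14, against 2.99% and 3.09% of all genes. Without replicate 1, rps-1 and rps-18 were lost and rpl-24.2 was gained, and without replicate 2, rps-19 was lost. The median offset was −331 bp as reported, −306 bp with 500 bp upstream and −375 bp for the strongest 345 peaks. It was −318.5 bp without rps-24, −317.5 bp without replicate 1 and −334 bp without replicate 2. The standard deviation between replicates was 11.7 bp, and it rests on only 2 medians, 1 per replicate. The cause of these shifts was not tested. Within 100 bp ACCGTA was at 14 of the 37 weaker member summits, against 8.09% of others. No paired analysis was possible because there is only 1 group.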
